A study of Oryza sativa with 2 samples.

Results

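HMG3 is the deposited symbol of a 3-hydroxy-3-methylglutaryl-CoA reductase gene. Its transcript ZS09t0355100-01 gave a pile of fragments at a site paired with trimmed forms of the rice small RNA miR1861. The HMG3 cut is here the position where these fragments begin, and whether miR1861 guided it was not tested. The members are the 7 lines with the symbol HMG3 among 25653, each of which pairs 1 small RNA with 1 transcript. They were set against the 282 other pairs of any small RNA whose name contains miR1861. The gene was chosen by its light over dark ratio and its read counts in these same libraries, so its reads, ratio, ranks and categories are given as a description, with no test.

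The study sequenced degradomes, that is, the 5′ ends of RNA fragments that lack a cap, in the indica rice cultivar P25. The tissue was the mesocotyl, the organ between seed and coleoptile that lengthens in darkness. The light library (L_1h) came from seedlings kept for 5 days in darkness and then given 1 h of light. The dark library (D_5d) came from seedlings kept for 5 days in darkness. Both groups share the cultivar, the organ, a Murashige and Skoog medium and the growth temperature, and each is a single library. The table holds reads at small RNA sites and no transcript levels, so the mesocotyl label was not checked against marker genes, and more transcript, more cutting and slower loss of fragments cannot be told apart. In bulk tissue, fewer cells of a type and less RNA per cell cannot be told apart either. The library totals were 34051452 reads in light and 15422946 in dark, as worked out from the deposited values, a ratio of 2.21. All intervals cover counting error only, because each condition is a single library. They can be too narrow even for that, since amplified reads with no molecular identifier need not be separate molecules.

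HMG-CoA reductase turns HMG-CoA into mevalonate, the committed step of the cytosolic isoprenoid pathway, which leads to sterols, to brassinosteroid precursors and to the farnesyl groups attached to proteins. Plants carry small families of such reductase genes, and in Arabidopsis their expression is known to respond to light. In plants a microRNA guides an Argonaute protein that cuts a well-paired transcript opposite bases 10 and 11 of the microRNA, counted from its 5′ end, and the downstream fragment then begins at the cut. miR1861 is a microRNA family described in rice, and several of its precursors give similar mature sequences.

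The small RNA paired with HMG3 is listed under 2 names, osa-miR1861b_L-4 and osa-miR1861d_L-4, which have an identical sequence of 18 bases, so each of its sites appears once under either name. It is osa-miR1861b without the first 4 of its 22 bases. It is shown with the untrimmed osa-miR1861b and the mature osa-miR1861a, because the trimming moves the seed (bases 2 to 8, in capitals). The last 2 sequences are those paired with the family's other site with reads in both libraries. T is written for U as in the deposited table.
osa-miR1861b_L-4: cTTGAGGCaggaactgag
osa-miR1861b: cGATCTTGaggcaggaactgag
osa-miR1861a: tGATCTTGaggcagaaactgag
osa-MIR1861a-p3: gGTTCCTGtcccaagatcgag
osa-MIR1861d-p3: gGTTCCTGtcccaagaccgag
The seed of osa-miR1861b_L-4 is shared by no other miR1861 sequence of the table, while osa-miR1861b and osa-miR1861a share theirs. The sequences named p3 come from the other arm of the precursor by their names, and osa-MIR1861a-p3 and osa-MIR1861d-p3 share a seed of their own. In all, the family comprises 16 names, 10 sequences and 6 seeds.

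The base that lies opposite the HMG3 cut is base 10 of the trimmed form and would be base 14 of osa-miR1861b, counted from the 5′ end. It stands in capitals below.
osa-miR1861b_L-4: cttgaggcaGgaactgag
osa-miR1861b: cgatcttgaggcaGgaactgag
The untrimmed sequence is listed against a single other transcript, ZS09t0310200-01, described as a CTR1-like protein kinase, with a penalty of 3.5 and no read. No pair of the untrimmed sequence with an HMG3 transcript is listed.

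Fragments that begin at the HMG3 site were far more abundant in the light library. In the light library 337 raw reads started at position 2477 of ZS09t0355100-01, against 19 in the dark library. The small RNA aligns to positions 2469 to 2486 of that transcript. At the depth of the dark library the light count would correspond to 153 reads, still well above the 19 of the dark library.

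The cut is also listed on ZS09t0355100-02 at position 3344 and on ZS09t0355100-03 at position 3494, where the deposited symbol is HMGR instead of HMG3. All 3 versions carry the same 337 and 19 reads. The authors' normalized reads were 112 in light and 6.33 in dark on each version, which is the raw count divided by 3 matching places. Summed over the versions they give back 337 and 19, so the 3 listings are a single cut seen through 3 transcript models. The position on ZS09t0355100-02 is 867 bases beyond that on ZS09t0355100-01, and the position on ZS09t0355100-03 is 150 bases further on.

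Counted once, the HMG3 site stood at 9897 TPB in the light library (95% exact interval 8868 to 11012) and at 1232 TPB in the dark library (742 to 1924), where TPB is the authors' scale of reads relative to the library total. On each single version the deposited values were 3299 TPB in light and 411 TPB in dark. The ratio of light over dark was 8.03 (5.06 to 13.5) on either count, since the division by matching places is equal in both libraries. It was 9.10 (5.73 to 15.3) with the median site with reads in both libraries as the scale. With the sum over those sites it was 5.92 (3.73 to 9.96). The point value was above 5 under every scaling tried, while the interval of the sum scaling reaches below 5. The log2 ratio of 3.01 is the size, with the opposite sign, of the -3.01 in the authors' deposited table, which gives dark over light.

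**Figure D1:**
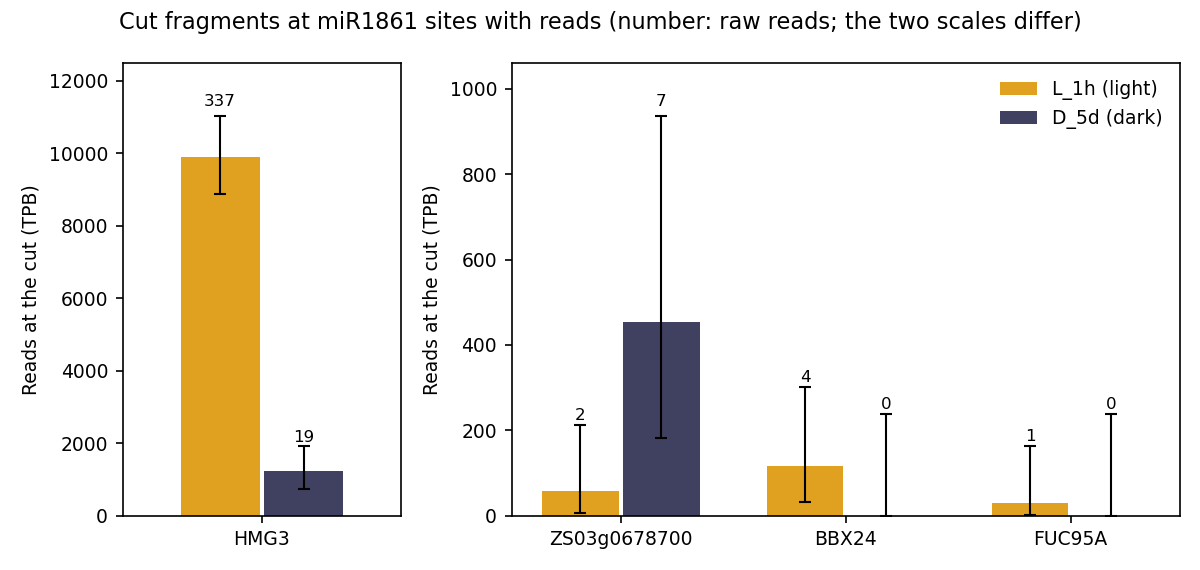
Reads that start at miR1861 sites, in TPB on linear axes, for the light library (left bars) and the dark library (right bars), with exact 95% counting intervals and the raw reads printed above. HMG3, on an axis of its own, stands at 9897 TPB in light and 1232 TPB in dark, and the 3 other genes with reads at a miR1861 site stay at or below 7 reads.

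HMG3 took 2.02% of the TPB at all listed sites in the light library and 0.346% in the dark library. Among genes with reads it ranked 10 of 665 by TPB in light and 37 of 413 in dark. By the ratio it ranked 1 among the 255 genes with reads in both libraries, whose median ratio was 0.883. Among the 83 of these with at least 20 reads in all, the median was 0.982. Next below HMG3 among the 255 came RPL14A at 7.70 (1.21 to 322) and ZS06g0090900 at 7.25 (1.13 to 304). Each had 1 dark read and fewer than 20 reads in all. Their intervals hold the HMG3 ratio, so their order against HMG3 cannot be told. A gene was called when its ratio was at least 2-fold and its 95% interval excluded 1. Of the 823 genes, 3.28% met this in the direction of light and 2.31% in the direction of dark. Genes with very few reads could not be called, so these shares understate how often genes with at least 20 reads were called. HMG3 is among the called genes by the same values that chose it. Genes with 0 dark reads have no finite ratio and stand outside the ranking. Among them, ZS12g0097300 had 33 light reads and was called higher. Its interval runs from 3.83 without an upper end, so its order against HMG3 cannot be told.

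**Figure D2:**
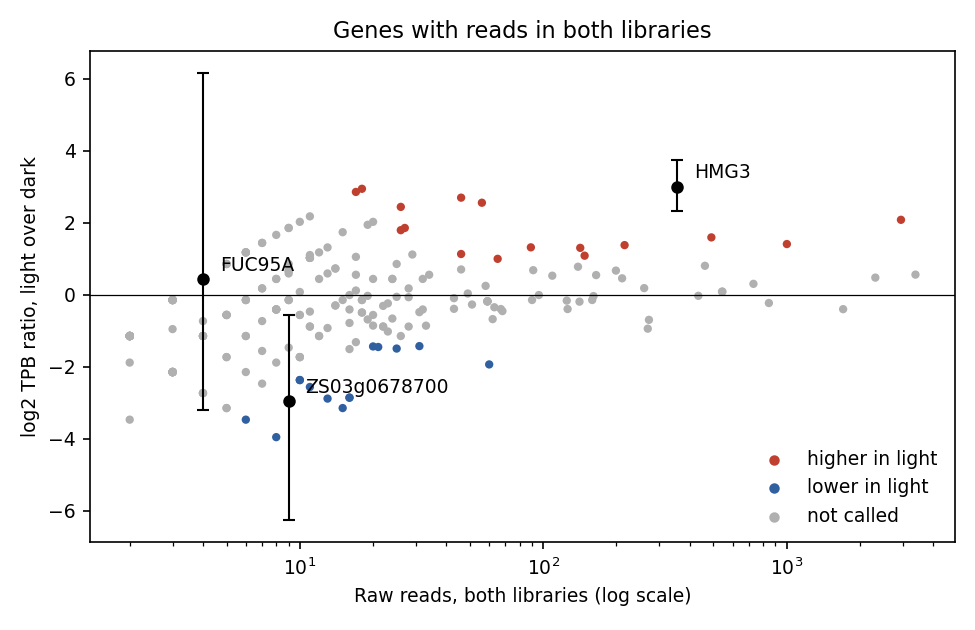
The log2 TPB ratio of light over dark (vertical axis) against raw reads in both libraries (log axis) for the 255 genes with reads in both, coloured by call. HMG3, FUC95A and ZS03g0678700 are drawn in black with 95% counting intervals, and here each gene counts all its listed sites. HMG3 lies highest, at 3.01, on 356 reads.

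The genes whose ratio lay nearest to that of HMG3 were taken among those with at least 20 reads. They were 2 genes listed with conserved microRNAs, 1 listed with a simple-repeat small RNA and ZS07g0470600, listed with miR528. Whether these small RNAs guided the cuts was not tested. Likeness here is only the distance between log2 ratios over 2 libraries. SCL6 (ZS02g0545600), a GRAS regulator gene, stood at a ratio of 6.49 (2.08 to 32.7), 0.31 below HMG3 on the log2 scale. Other genes with the symbol SCL6 stood at 1.75 (ZS04g0662300), 0.522 (ZS06g0014000) and 0.371 (ZS02g0545800). PSK5, which encodes a precursor of the growth peptide phytosulfokine, stood at 5.89 (2.17 to 22.4). At1g28580/At1g28600 stood at 5.44 (1.35 to 47.4) and ZS07g0470600 at 4.24 (3.75 to 4.81). The intervals of ZS02g0545600, PSK5 and At1g28580/At1g28600 reach past the HMG3 ratio, so their order cannot be told from these counts. That of ZS07g0470600 ends below the HMG3 interval.

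The rank of the HMG3 position within its own transcript also differed between the libraries. The authors placed it in category 0 in the light library, which by common usage is the position with most reads on a transcript, and in category 2 in the dark library, by common usage above the transcript's median but below its highest position. By that usage another position of the transcript had more than 19 reads in the dark. No such position is among the listed pairs. Of the 187 genes with a category 2 site in the dark library, HMG3 ranked 12 by dark reads. The change from category 2 in dark to category 0 in light was shared by 10 genes, among them GRF4, an AP2 gene, SCL6 (ZS02g0545600) and PSK5. Another 8 genes had a site that went the other way, among them a further SCL6 gene, ZS02g0545800. That gene was called lower, at 0.371 (0.136 to 0.984). SPL3 and SPL12 had sites in either direction and count among both.

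The pairing of HMG3 with the trimmed miR1861 was poor. Its mispairing penalty was 4, the highest of the deposited scale, which starts at 0 for perfect pairing. In the authors' deposited table the p-value of the pair was 0.174 in the light library and 0.999999 in the dark library, where a low value marks a pair unlikely by chance at that category. Of the 55 genes with a category 0 site in the light library, 53 had a deposited p of 0.05 or less, with a median of 0.0194. The exceptions were HMG3 and PSK1, and PSK1 had a p of 0.942 on 5 light reads. By light reads HMG3 ranked 11 among these 55 genes, whose median was 45 reads.

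**Figure D3:**
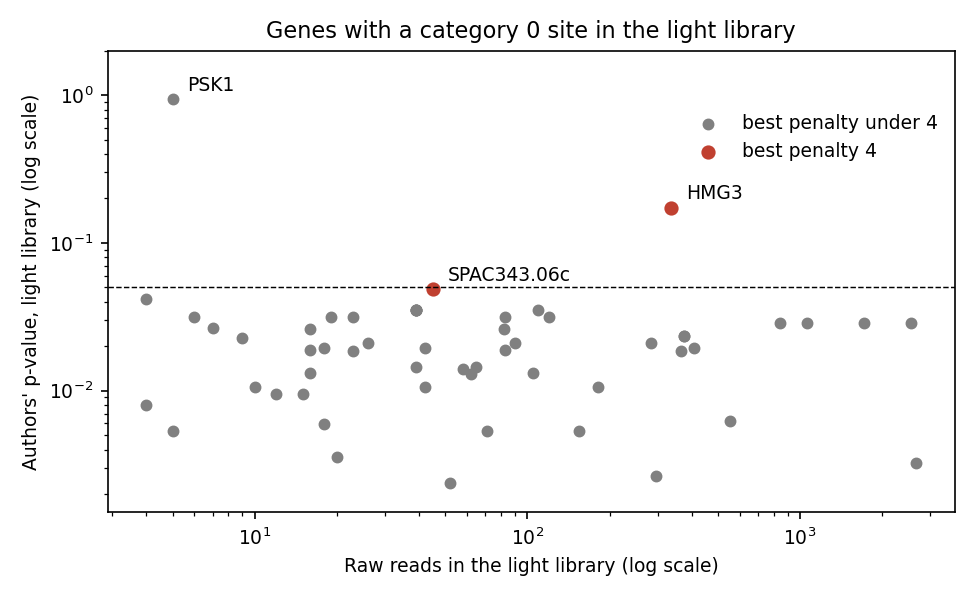
The authors' deposited p-value in the light library (log axis) against light raw reads (log axis) for the 55 genes with a category 0 site there, with genes whose best penalty is 4 in red and a dashed line at 0.05. HMG3, at 337 reads and 0.174, and PSK1, at 5 reads and 0.942, lie above the line.

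A category 0 site at this penalty was rare. Among genes with light reads at a site whose best penalty was 4, 2 of 275 (0.727%) had a category 0 site there, against 53 of 413 (12.8%) for sites with a lower penalty. The gene besides HMG3 was SPAC343.06c (ZS02g0157500), with 45 light reads and 10 dark reads, the next highest light count at such a site. The median site at this penalty had 2 light reads. HMG3 was thus the most deeply read site among the poorly paired ones, by a count of 337 against 45.

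The authors' deposited table also gives p-values between the libraries, which are 0 for HMG3. The same columns give 3.35e-06 for pairs with 1 unshared read in each library, so they were not used as evidence of a difference.

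Few other genes listed with miR1861 had fragments. Over genes their share was not shown to differ from that of all listed genes. Over pairs, which are not independent, it was lower. Of the 282 other pairs 4 belong to the same gene under the symbol HMGR. Over genes, 3 of the 90 others had reads at a family site (3.33%, Wilson 95% interval 1.14 to 9.35). Of all 9660 listed genes, 823 had reads at a site of any small RNA (8.52%, 7.98 to 9.09), and the intervals overlap. The count over all genes takes in sites of every small RNA listed with a gene, so the shares are not like measures. Over pairs, 10 of 278 had reads (3.60%, 1.97 to 6.49), against 3262 of 25653 (12.7%, 12.3 to 13.1), and these intervals do not overlap. Pairs are not independent, since names share sequences and transcript versions share sites, and the shares over genes were added after those over pairs had been seen. With identical sequences counted once, a count added after the data were seen, 4 family pairs had reads. No read was found at any pair of 8 of the 16 names. Those 8 names have only 1 to 10 pairs each, and the share over all small RNA names was not taken.

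The unnamed gene ZS03g0678700 had the most reads among the other genes with reads at a family site. Its site at position 432 of ZS03t0678700-01 is paired with 6 names of the other precursor arm, which share the seed shown above, at a penalty of 3.5. It had 2 reads in the light library and 7 in the dark library, or 58.7 and 454 TPB. The ratio was 0.129 (0.0131 to 0.680), so this site went the opposite way from HMG3 and was called lower, on 9 reads in all. It was in category 2 in both libraries, and its deposited p-values were 0.276 in light and 0.164 in dark.

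BBX24, by its symbol a B-box zinc finger protein of a family known from light signalling in Arabidopsis, had 4 reads in the light library and 0 in the dark library at position 460 of ZS02t0484400-01. The light level of 117 TPB lies under the 195 TPB that 3 reads would give in the dark library, so no fold is given. FUC95A, described as similar to an alpha-1,2-fucosidase, an enzyme that removes fucose from glycans, had 1 light read and 0 dark reads at position 1339 of ZS10t0241300-01. Both sites pair with the trimmed form at the penalty of HMG3, and their deposited light p-values round to 1. A difference between the libraries was not detectable at this depth for either gene.

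Among the 3 other genes with a family site that had reads, 0 were called higher and 1 lower. Over all genes 3.28% were called higher and 2.31% lower, and a count of 3 genes is too small to read against these shares. FUC95A as a gene, with a further site of another small RNA, stood at 1.36 (0.109 to 71.3) and was not called.

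Within the sites of the trimmed form, HMG3 held nearly all reads. Its sequence is listed against 123 transcripts of 74 genes, and its pairs under both names make up 246 of the 284 family pairs (86.6%). With transcript versions counted once, its sites had 342 reads in light and 19 in dark, of which HMG3 held 337 and 19. The other 73 genes, BBX24 and FUC95A included, had 5 light reads and 0 dark reads between them. Of those 73 genes 2 had reads (2.74%, 0.755 to 9.45), against 6.37% (5.79 to 7.00) of genes listed with any small RNA of 18 bases, and the intervals overlap.

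No reads were found at the better-paired family sites, which are few. The 26 family pairs with a penalty of 3 or less stand for 10 genes, and 0 of 10 allows a share of up to 30.0%, against 9.06% of all genes listed at such penalties, so no difference was detectable. At a penalty of 3.5 the family had reads in 1 of 23 genes (4.35%, 0.772 to 21.0), which is ZS03g0678700, against 7.78% of all genes. At a penalty of 4 reads were found in 2 of 60 genes other than HMG3 (3.33%, 0.919 to 11.4), namely BBX24 and FUC95A. The share was 7.79% of all genes at that penalty and 6.24% of those listed with a small RNA of 18 bases, both inside the family's interval. Over pairs, reads were found in 0 of 26 at a penalty of 3 or less, against 15.4% of all pairs. At a penalty of 4 the share of pairs was 2.09% (0.817 to 5.26), against 11.0% of all pairs and 7.93% (7.14 to 8.79) of those of 18-base small RNAs.

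**Figure D4:**
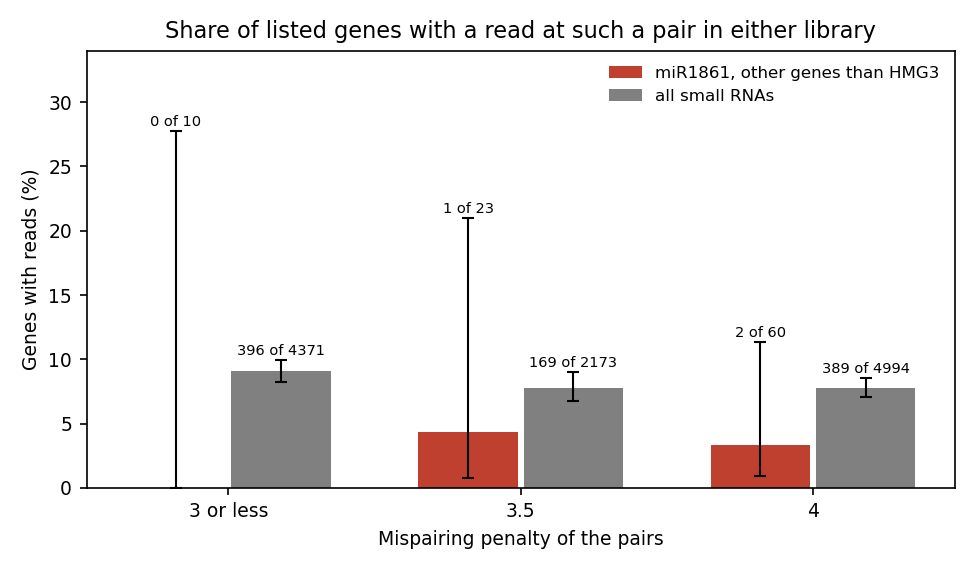
Percent of listed genes with a read in either library at a pair of the given mispairing penalty, for miR1861 pairs of genes other than HMG3 (left bars) and for all small RNAs (right bars), with Wilson 95% intervals. The family has reads in 0 of 10 genes at a penalty of 3 or less, 1 of 23 at 3.5 and 2 of 60 at 4, and its intervals hold the shares of all genes.

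The best-paired listed family targets without reads were ZS05t0181100-01 at positions 785 to 802 and ZS05t0311100-01 at positions 776 to 793. Each had a penalty of 2 for both names of the trimmed form. The second has the symbol Tf2-12, by name a yeast retrotransposon protein. Next by the order of transcript identifiers was ZS01t0242700-01, at a penalty of 3. Also at a penalty of 3, and named after the values were seen, were RRP41 and RRP44A, subunits of the exosome that degrades RNA from its 3′ end. Whether these transcripts were present in the mesocotyl cannot be read from this table.

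The remaining 5 pairs with the symbol HMG3 had no reads and belong to other loci. ZS08t0604600 is listed in 4 versions with osa-MIR159f-p5 at a penalty of 4, and ZS02t0601500-01 with a variant named osa-MIR396h-p5_1ss16GA at 2.5. The symbol is therefore given to 3 loci in the deposited table. In RefSeq's rice table (assembly ASM3414082v1) HMG3 is a synonym of the single gene LOC4346017 on chromosome 8. The transcript with reads is described by the locus name Os09g0492700, which by the rice naming system lies on chromosome 9, so the symbol rests on the deposited table and the gene with reads was not shown to be RefSeq's HMG3. Its deposited annotation terms name HMG-CoA reductase activity and sterol synthesis. Its genome coordinates are not given here, since the sources used here do not name the build behind the transcripts.

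Few reads were found at listed sites of the other genes on the isoprenoid list. A list by words in the deposited symbols and descriptions held 16 genes besides the HMG3 gene with reads. The words took in genes beyond isoprenoid synthesis, such as LCAT1, described as a lecithin:cholesterol acyltransferase. Of the 16 genes 2 had reads (12.5%, against 8.52% of all listed genes), and 0 were called higher and 0 lower. DIM, described as a delta(24)-sterol reductase, which acts in sterol and brassinosteroid synthesis, had 2 reads in light and 0 in dark at position 137. ZS01g0785600, described as a further HMG-CoA reductase, had 1 read in light and 0 in dark at position 1483. The diphosphomevalonate decarboxylase genes MVD1 and MVD2, which act downstream of the reductase, were listed without reads. Genes outside these words can have reads. ZS06g0628700, with the symbol AAE, is described as a zeta-carotene desaturase of the carotenoid branch. It had 6 raw reads in light and 1 in dark. Those reads match several places, and the gene stood at 29.4 TPB in light, the value of 1 unshared read. The brassinosteroid synthesis symbol CYP90A1 is given to ZS12g0043300 and ZS11g0044000, each listed with 5 raw reads in light and 0 in dark. Their reads are divided among matching places too, at 128 and 18.4 TPB in light, so both genes may hold the same 5 reads. None of these genes was called, and all were named after their values were seen. Over all 823 genes with reads 3.28% were called higher and 2.31% lower. By the deposited KEGG entry for terpenoid backbone synthesis, a list added after the data were seen, 5 of 27 other genes had reads (18.5%, 8.18 to 36.7), with at most 1 read at a site in either library.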

How the data were processed

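Degradome fragments were measured in 1 light library and 1 dark library of rice mesocotyl. The sources used here do not name the aligner, the target finder or the genome build. Per the file headers, the deposited table gives raw read counts at each cleavage position, normalized reads and TPB. The normalized reads are a signal in which the authors divided raw counts by matching places, and TPB is a signal the authors scaled to the library total. The totals were worked out as whole numbers from the deposited TPB. The authors also deposited p-values for each pair and between the libraries, a category score from 0, a penalty score and a log2 fold change of dark over light.

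Columns headed as a dark library of 1 h were taken for D_5d, whose TPB equals their normalized reads times 1 constant. The other sheets, with 20 columns of values per sample, name neither HMG3 nor miR1861 and were not used. A single line of the pair table was empty.

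Sites were 1 transcript and 1 position. Gene TPB is the sum over all its sites, and gene raw reads are those of its most-read version. Ratios are light over dark with exact Clopper-Pearson 95% intervals of raw reads (scipy 1.17.1), scaled to the TPB ratio. With 1 library per condition no test between conditions was made. Calls were tested on simulated data. The members, lists and tests were chosen with earlier results of these data known. Named were HMG3, every other gene with reads at a miR1861 site, pathway genes with reads, the 4 genes nearest in ratio with at least 20 reads, and the 5 best-paired family pairs without reads. Shares with reads were first taken over pairs, and shares over genes were added after those had been seen. Alternatives were the scaling, raw reads, the version with most reads, the call rule, a minimum of 3 reads, the penalty and the authors' p.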

Additional observations from a re-analysis of the deposited data

How the results depend on the processing

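The HMG3 ratio stayed within its interval and was called higher under the median scaling, the sum scaling, raw reads and the version with most reads, at 5.92 to 9.10. ZS03g0678700 was called lower with the median scaling, the sum scaling and raw reads too, at 0.0954 to 0.147. With the sum scaling 12 genes were called higher and 44 lower over all genes, against 27 and 19 on the authors' scale. Among other miR1861 genes 0 were called higher and 1 lower under every alternative run. Their pairs with reads numbered 10, falling to 4 with identical sequences counted once, 0 at a penalty of 3 or less and 0 at an authors' p of 0.05 or less. Genes behind them numbered 3, with 0 at a penalty of 3 or less and 0 at that p. Pathway genes with reads numbered 2, with 0 at a minimum of 3 reads and 5 by the KEGG entry. Depth limits the other family genes, which had 9 reads or fewer. No paired analysis was possible because each condition has 1 library, and leaving out a library leaves no comparison.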
